A study of Mus musculus with 6 samples.

Results

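The genes described here are 10 members of the signalling route of interleukin-6 (IL-6) family cytokines to STAT3, measured by RNA-seq in whole spinal cord of mice that lack Sox2 in astrocytes. The members are the receptor chains Il6st, Lifr, Osmr, Il6ra and Cntfr, the kinases Jak1 and Jak2, the transcription factors Stat3 and Stat5b, and the inhibitor Socs3. They were chosen by name from the 35275 genes of the deposited tables, and all 10 were among the 16137 genes that passed the filter on low counts. Sox2 cKO mice were C57BL/6 animals of the genotype mGfap-Cre:Sox2fl/fl (n = 3), in which the mouse Gfap promoter drives Cre and deletes Sox2 in astrocytes. Ctrl mice of the same strain (n = 3) are mGfap-Cre:Sox2+/+ in the sample labels. The series design gives them mGfap-Cre or Sox2fl/fl, and the study's text gives Sox2fl/fl littermates. The labels give postnatal day 90 for both groups in one field and day 80 in another. The tissue was the whole cord with all of its cell types, so that fewer cells of a type and less RNA per cell cannot be told apart.

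Cytokines of this family, among them IL-6, leukaemia inhibitory factor and ciliary neurotrophic factor, bind sets of receptor chains that include gp130, the product of Il6st. Ligand binding activates Janus kinases on the receptor tails, which phosphorylate STAT3, and STAT3 then enters the nucleus and induces genes including Socs3, whose protein shuts the route down. In the central nervous system this route is known for its part in astrocyte differentiation, Gfap transcription and the reactive state of astrocytes after injury. RNA levels of these genes do not report phosphorylation of the proteins.

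The libraries held between 21507911 and 28392184 counts on genes. The deposited columns carry mouse numbers, so that libraries 2, 4 and 6 are called Ctrl and libraries 1, 3 and 5 Sox2 cKO. Values of single libraries are given below in the order 2, 4 and 6 for Ctrl and 1, 3 and 5 for Sox2 cKO. Sox2, as counts scaled by TMM to a common library size (CPM), measured 19.9, 14.8 and 29.5 in the Ctrl libraries against 3.16, 2.69 and 2.98 in the Sox2 cKO libraries, with no overlap (log2 fold change -2.86 ± 0.24 SE, adjusted p = 0.000956, edgeR). Of 10 genes known from spinal cord, Hoxd10 was at 0 counts in every library, and the CPM of the list summed to 440-527 in Ctrl and 449-520 in Sox2 cKO, against 3.72-6.77 and 3.60-5.63 for 5 genes of forebrain. Fold changes were lower the longer the gene (Spearman's rho = -0.48 across 16137 genes, which are not independent replicates). For that reason the fold change of each member is given also after a correction for length. The same holds for the medians over the members, over the further genes of the route and over the targets of STAT3. The sample records give a minimum RNA integrity number of 6.8 for both groups, and the study's text states a higher minimum. The part of RNA quality in the trend with length was not tested.

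Of the 10 members, 3 were lower in Sox2 cKO and 0 were higher at an adjusted p below 0.05 (edgeR's quasi-likelihood test, Benjamini-Hochberg adjustment over all genes tested). The called members were Il6st, Cntfr and Stat3. Of all genes tested, 24.6% were called, 12.4% as lower and 12.2% as higher, so the members' count was not far from that of genes at large. The median log2 fold change of the members was -0.21 against 0.02 for all genes tested. However, 7 members were in the longest 20% of genes, of 4872 bases or more, where 36.0% of genes were called lower and the median log2 fold change was -0.25. With the length correction 2 members, Il6st and Cntfr, were called, against 13.1% of all genes, and the members' median was -0.02. Groups with no overlap in CPM were seen in 4 of the 10 members and in 44.7% of all genes tested. Calls were lost when some single libraries were left out. Without Sox2 cKO library 1, 0 members and 8 of all genes were called, and 0 members and 26 of all genes without Ctrl library 4. In these edgeR fits 3 and 1 members had an unadjusted p below 0.05. The fold changes of Il6st, Cntfr and Stat3 kept their sign in all 6 fits that lacked a library. Why the calls were lost was not tested.

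**Figure D1:**
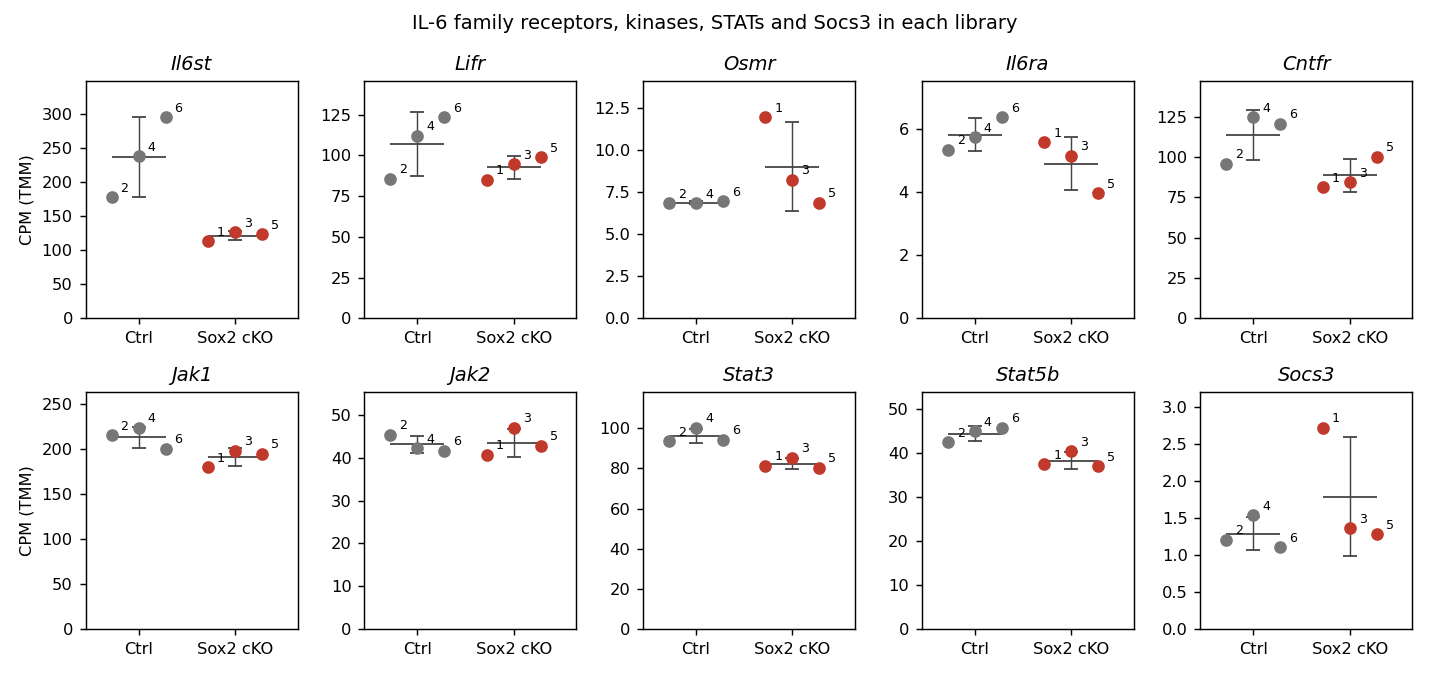
CPM (TMM) of each member in the 3 Ctrl and 3 Sox2 cKO libraries, with the library numbers beside the points. Horizontal lines are means and bars are SD. Every Sox2 cKO library lies below every Ctrl library for Il6st, Jak1, Stat3 and Stat5b, and library 1 is the highest for Osmr and Socs3.

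Il6st (ENSMUSG00000021756) encodes gp130, the signalling chain that most receptors of the family share. The gene lies on chromosome 13 of mm10 from 112464070 to 112510086, on the plus strand. Its level was 178, 238 and 295 CPM in the Ctrl libraries against 113, 126 and 123 CPM in the Sox2 cKO libraries. All Sox2 cKO libraries were below all Ctrl libraries, and the Ctrl libraries spread more widely than the Sox2 cKO libraries. The mean was 237 ± 58.7 CPM (SD, n = 3) in Ctrl and 121 ± 6.62 CPM (SD, n = 3) in Sox2 cKO, or 51.0% of the Ctrl level by the fit. This gave a log2 fold change of -0.97 ± 0.15 (SE, adjusted p = 0.0124, edgeR), and 0.855% of all genes tested had a lower one. After the length correction it was -0.63 ± 0.11 (adjusted p = 0.0185, edgeR). All 8 alternatives other than leaving out a library called it lower. Without Ctrl library 4 or without Sox2 cKO library 1 the fold changes were -0.97 and -0.93, and the adjusted p-values of edgeR rose to 0.0650 and 0.0656.

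The 10 astrocyte marker genes, which contain no member, were lower in Sox2 cKO for 4 genes and higher for 0 by edgeR, with a median log2 fold change of -0.23. Their CPM summed to 5183-6050 in Ctrl and 3956-4495 in Sox2 cKO. Among 7 measured markers of oligodendrocyte precursors 5 were lower and 0 were higher, with sums of 615-696 and 479-548 CPM. The median log2 fold change of the precursor markers was -0.43. Of all genes tested, 12.4% were called lower by edgeR. The medians of both lists are without the length correction, and the part of these cells in the level of Il6st was not tested.

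Lifr, the receptor chain of leukaemia inhibitory factor that pairs with gp130, did not pass the test. It measured 85.6, 112 and 124 CPM in the Ctrl libraries against 85.1, 94.7 and 98.9 CPM in the Sox2 cKO libraries. The groups overlapped through Ctrl library 2. Its log2 fold change was -0.21 ± 0.13 (SE, adjusted p = 0.250, edgeR) and turned to 0.16 ± 0.08 (adjusted p = 0.166, edgeR) with the length correction. Without Ctrl library 2 it was called, at -0.34 (adjusted p = 0.0112, edgeR). Lifr is the longest of the members, at 9655 bases.

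A ratio between members within a library does not depend on the scaling of that library. The level of Il6st per length was 2.31, 2.36 and 2.66 times that of Lifr in the Ctrl libraries against 1.48, 1.48 and 1.39 times in the Sox2 cKO libraries, on the FPKM scale. Lifr and Il6st are both long transcripts, of 9655 and 8678 bases. The ratio of Il6st to Jak1 was 0.468, 0.603 and 0.834 in the Ctrl libraries and 0.358, 0.360 and 0.358 in the Sox2 cKO libraries. For both ratios the groups did not overlap, and the two-sided exact permutation p was 0.1, the smallest that 3 libraries against 3 can give. The ratios were chosen after the data had been seen, among 6 that were computed, of which 4 did not overlap between the groups. All 4 contain Il6st, so they repeat its difference and are not separate results. Of single genes tested, 44.7% did not overlap in CPM. Jak1, of 4906 bases, is shorter than Il6st, so their ratio also carries the trend with length.

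Cntfr (ENSMUSG00000028444), on chromosome 4 from 41657498 to 41697089 on the minus strand, encodes the chain that binds ciliary neurotrophic factor, has no signalling tail of its own and hands the ligand to gp130 and the LIF receptor. It had 95.9, 125 and 121 CPM in the Ctrl libraries against 81.3, 84.4 and 100.3 CPM in the Sox2 cKO libraries. Ctrl library 2 was below Sox2 cKO library 5, so the groups overlapped. The log2 fold change was -0.36 ± 0.12 (SE, adjusted p = 0.0471, edgeR). With 1995 bases, Cntfr is the shortest member, and the length correction moved its fold change away from 0, to -0.53 ± 0.13 (adjusted p = 0.0323, edgeR). It was called in 5 of the 8 other fits to all libraries and in 2 of the 6 fits to 5 libraries, those without Ctrl library 2 or without Sox2 cKO library 5, and its adjusted p was between 0.134 and 0.175 in the other 4 (edgeR). With all libraries its call was lost with upper quartile normalization (adjusted p = 0.0600, edgeR) and with limma on FPKM (adjusted p = 0.110 and 0.111).

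Osmr, the chain that joins gp130 to form the oncostatin M receptor, had 6.82, 6.82 and 6.95 CPM in the Ctrl libraries against 11.9, 8.22 and 6.88 CPM in the Sox2 cKO libraries. Library 5 fell within the narrow range of the Ctrl libraries and library 1 was the highest of all. The log2 fold change of 0.39 ± 0.19 did not pass the test (SE, adjusted p = 0.163, edgeR), and it was 0.14 without Sox2 cKO library 1 and 0.57 with the length correction (adjusted p = 0.0907, edgeR). Il6ra encodes the chain that binds IL-6 itself. It had 5.34, 5.74 and 6.37 CPM in the Ctrl libraries against 5.58, 5.15 and 3.97 CPM in the Sox2 cKO libraries. The groups overlapped, and the log2 fold change was -0.25 ± 0.17 (SE, adjusted p = 0.306, edgeR), and -0.25 also with the length correction.

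The kinases Jak1 and Jak2, which bind the receptor tails and phosphorylate the STAT proteins, did not pass the test. Jak1 had 215, 223 and 200.1 CPM in the Ctrl libraries against 179, 198 and 195 CPM in the Sox2 cKO libraries. The groups nearly met, at 200.1 CPM in Ctrl library 6 and 198 CPM in Sox2 cKO library 3, and the log2 fold change was -0.16 ± 0.08 (SE, adjusted p = 0.182, edgeR) or -0.03 with the length correction. Jak2 had 45.4, 42.3 and 41.7 CPM in the Ctrl libraries against 40.7, 47.0 and 42.8 CPM in the Sox2 cKO libraries. Its groups overlapped fully, with a log2 fold change of 0.01 ± 0.09 (SE, adjusted p = 0.922, edgeR), or 0.15 with the length correction (adjusted p = 0.216, edgeR).

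Stat3 (ENSMUSG00000004040), on chromosome 11 from 100885098 to 100939540 on the minus strand, encodes the main transcription factor of the route. Its level was 93.7, 100.2 and 94.4 CPM in the Ctrl libraries against 81.3, 85.4 and 80.5 CPM in the Sox2 cKO libraries. The groups did not overlap, and both were tight, with means of 96.1 ± 3.58 and 82.4 ± 2.62 CPM (SD, n = 3 each). The log2 fold change of -0.22 ± 0.07 (SE) passed the threshold narrowly (adjusted p = 0.0465, edgeR). With the length correction it was -0.01 ± 0.06 (adjusted p = 0.949, edgeR), and Stat3, of 6042 bases, lay on the curve of the median fold change of genes of its length. Of the 8 fits other than leaving out a library, 3 called Stat3, and of the 6 fits to 5 libraries 1 did, that without Ctrl library 2, with adjusted p between 0.0989 and 0.176 in the other 5 (edgeR). Per length it had 15.4, 16.0 and 14.7 FPKM in the Ctrl libraries and 14.3, 14.6 and 13.5 FPKM in the Sox2 cKO libraries.

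Stat5b, a related factor that growth hormone and other cytokines activate, had 42.3, 44.9 and 45.6 CPM in the Ctrl libraries against 37.4, 40.4 and 36.9 CPM in the Sox2 cKO libraries. The groups did not overlap, but the log2 fold change of -0.21 ± 0.08 missed the threshold (SE, adjusted p = 0.0794, edgeR), and it was -0.05 with the length correction. Without Ctrl library 2 it passed, at -0.24 (adjusted p = 0.0342, edgeR). Stat3, Stat5a and Stat5b are neighbours on chromosome 11. The gene models of Stat3 and Stat5a overlap by 72 bases on opposite strands, and the sources do not say if reads were counted by strand. Stat5a had 659 counts over all libraries and Stat3 had 12941. Stat5a and Stat5b are close copies, and how reads that match both were divided is not known.

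**Figure D2:**
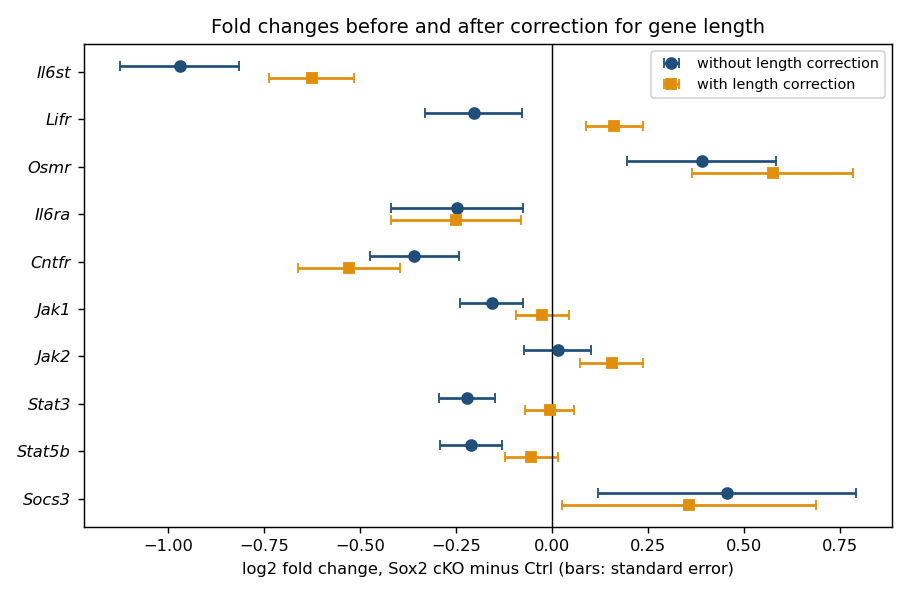
Log2 fold change of each member (Sox2 cKO minus Ctrl, x axis) before and after the correction for gene length. Points are estimates of edgeR and bars are standard errors. Il6st and Cntfr lie below 0 in both fits, while Stat3 moves from -0.22 to -0.01 and Lifr crosses 0.

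**Figure D3:**
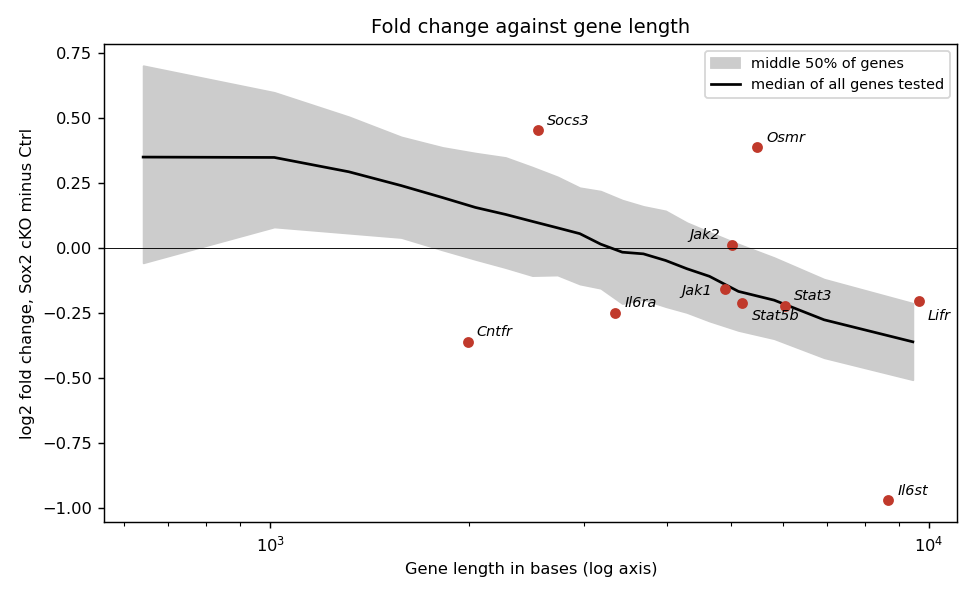
Log2 fold change (y axis) against gene length in bases (x axis, log scale). The line and the band are the median and the middle 50% of all 16137 genes tested in 20 bins of length, and red points are the members. Il6st lies far below the band, and Cntfr and, by less, Il6ra also lie below it. Osmr and Socs3 lie above the band, and Stat3 lies on the line.

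Socs3, which STAT3 induces and whose protein blocks gp130 and the Janus kinases, was the lowest member. It had 27, 37 and 23 counts in the Ctrl libraries against 62, 40 and 34 counts in the Sox2 cKO libraries, or 1.21, 1.54 and 1.11 against 2.72, 1.36 and 1.28 CPM. Libraries 3 and 5 lay within the Ctrl range, and library 1 was above all others. For Socs3 the log2 fold change was 0.45 ± 0.34 (SE, adjusted p = 0.336, edgeR), without Sox2 cKO library 1 it was 0.04, and with the length correction it was 0.36 (adjusted p = 0.485, edgeR). Sox2 cKO library 1 also stood out in marker genes of other cells. Of 10 endothelial markers 8 had their highest CPM there, as had 27.2% of all genes tested, and their sum was 356 CPM in that library against 239-267 in Ctrl and 246-258 in the other Sox2 cKO libraries. Microglia markers summed to 420.5 CPM in that library, against 315-360 in Ctrl and 281-319 in the other Sox2 cKO libraries. Of these 10 markers 5 had their highest CPM there. No other marker list had its highest sum in that library. Endothelial cells are known to express Socs3 and Osmr, and the part of any of these cells in the levels of Socs3 and Osmr was not tested.

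The sequences around the start sites of Il6st, Stat3 and Socs3 are shown because these genes are the shared receptor chain, the factor and the feedback gene of the route. Each run is 300 bases of RefSeq on GRCm38.p6, 5′ to 3′ on the strand of the gene, from 250 bases before the start to 50 after it. Capitals mark TTCNNNGAA, the motif of STAT dimers, and CAAAG on either strand, letters held in the consensus of SOX2.
Il6st, chr13:112463820-112464119, plus strand: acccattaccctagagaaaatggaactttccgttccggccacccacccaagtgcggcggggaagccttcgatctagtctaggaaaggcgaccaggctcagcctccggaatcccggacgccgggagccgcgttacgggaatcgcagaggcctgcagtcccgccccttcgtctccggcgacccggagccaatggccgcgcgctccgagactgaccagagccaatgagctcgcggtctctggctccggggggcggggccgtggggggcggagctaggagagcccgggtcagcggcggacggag
Stat3, chr11:100939491-100939790, minus strand: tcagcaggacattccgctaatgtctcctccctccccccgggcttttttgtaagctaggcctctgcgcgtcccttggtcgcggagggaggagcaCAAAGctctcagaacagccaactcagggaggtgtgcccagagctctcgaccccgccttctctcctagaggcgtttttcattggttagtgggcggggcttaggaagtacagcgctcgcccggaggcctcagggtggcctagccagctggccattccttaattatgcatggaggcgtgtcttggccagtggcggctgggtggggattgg
Socs3, chr11:117969317-117969616, minus strand: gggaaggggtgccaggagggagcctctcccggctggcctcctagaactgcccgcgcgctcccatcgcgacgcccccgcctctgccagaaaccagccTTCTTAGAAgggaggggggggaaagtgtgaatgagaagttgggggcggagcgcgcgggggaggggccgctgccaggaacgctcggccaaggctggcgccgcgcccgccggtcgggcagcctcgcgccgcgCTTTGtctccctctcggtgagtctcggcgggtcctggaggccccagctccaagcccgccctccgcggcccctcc
The RefSeq table held 17 windows for the 10 members. TTCNNNGAA was present in 1 of them, that of Socs3, where it begins at position -154 from the start site, and in 8.3% of 32851 promoters of the same length. CAAAG was present in 8 of the 17 windows, which belong to 4 members, and in 53.9% of the promoters searched, which did not cover every chromosome. The Cntfr windows with CAAAG overlap and share sites, so the count of windows is not one of separate sites. The window of Il6st held neither motif. These letters are a description of the windows and say nothing about binding.

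On the FPKM scale, which divides by gene length and so lets genes be compared, Cntfr had the highest level of the members in Ctrl, followed by Jak1, Il6st, Stat3, Lifr, Jak2, Stat5b, Il6ra, Osmr and Socs3. The means in Ctrl were 54.9 ± 6.41 FPKM for Cntfr, 41.9 ± 3.01 for Jak1, 26.3 ± 5.85 for Il6st and 15.4 ± 0.614 for Stat3 (SD, n = 3). The ranges of Lifr and Jak2, at means of 10.7 and 8.29 FPKM, overlapped, as did those of Jak2 and Stat5b, so these neighbours were not told apart by their spread. Il6ra, Osmr and Socs3 were far below, with means of 1.68, 1.21 and 0.487 FPKM. In Sox2 cKO the leading genes kept their order, but the mean of Il6st fell to 14.4 ± 0.575 FPKM and its range overlapped that of Stat3, at 14.1 ± 0.573. Osmr, at 1.71 FPKM, was then above Il6ra, at 1.52, with overlapping ranges.

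**Figure D4:**
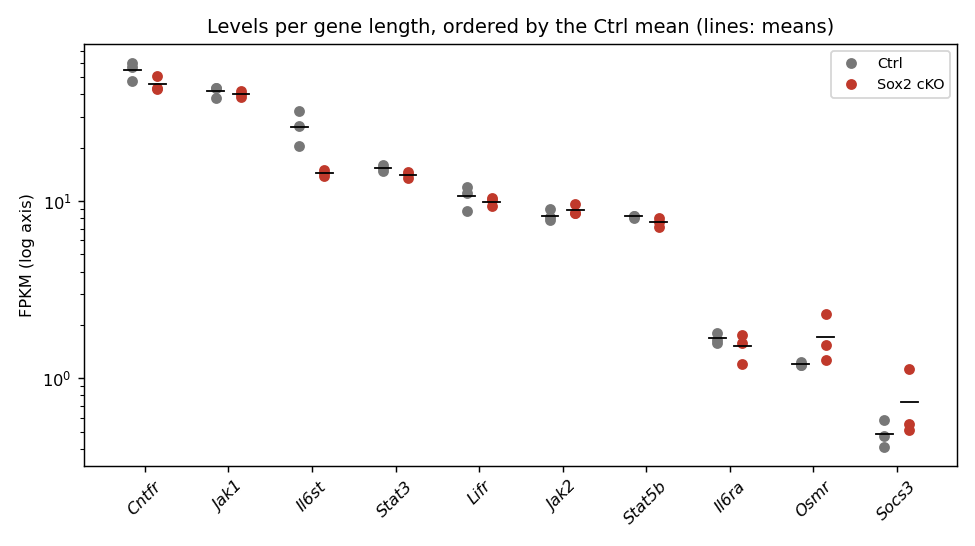
FPKM (log axis) of the members in each Ctrl and Sox2 cKO library, ordered by the Ctrl mean, with lines at the means. Il6st stands above Stat3 in the Ctrl libraries, and both lie between 13.5 and 14.99 FPKM in the Sox2 cKO libraries.

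Among 63 further genes of the route, in 6 lists, 54 passed the filter and 7 were lower and 8 higher in Sox2 cKO (edgeR, adjusted p below 0.05). The calls stand beside 24.6% of all genes. Their median log2 fold change was 0.16, and with the length correction it was 0.08. In that corrected fit 5 genes were lower and 7 higher, against 13.1% of all genes called. Of the 54 genes 1 was called without Sox2 cKO library 1 and 2 without Ctrl library 4. A2m passed in all 6 fits that lacked one library, whereas every other gene named below as called lost its call without Sox2 cKO library 1. The ligands were scarce, and 4 of 11 passed the filter, of which 0 were called. Il6 had 3, 11 and 2 counts in Ctrl libraries 2, 4 and 6 and 1 count in each Sox2 cKO library, and Il31 had 0 in all libraries. Ctf1, which encodes cardiotrophin-1, and Clcf1, a ligand of the CNTF receptor, had the highest CPM of the ligands tested, with log2 fold changes of 0.26 (adjusted p = 0.50, edgeR) and 0.54 (adjusted p = 0.183, edgeR).

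Of 4 other receptor genes, Sort1 was lower, and 0 were higher, as with the length correction. Sort1 encodes sortilin, a sorting receptor that also binds ligands of this family. It had 422, 487 and 460.1 CPM in the Ctrl libraries against 295, 340 and 341 CPM in the Sox2 cKO libraries, with no overlap (log2 fold change -0.49 ± 0.09 SE, adjusted p = 0.0128, and -0.23 after the length correction, adjusted p = 0.0392, edgeR). Il11ra1, the receptor chain for IL-11, had a log2 fold change of -0.11 (adjusted p = 0.477, edgeR). Of the 2 other Janus kinases, Jak3, known from blood cells, was higher. It had 4.22, 5.53 and 5.17 CPM in the Ctrl libraries and 10.5, 7.03 and 6.57 CPM in Sox2 cKO libraries 1, 3 and 5, and did not overlap (log2 fold change 0.68 ± 0.20 SE, adjusted p = 0.0351, edgeR), and its fold change was 0.45 without Sox2 cKO library 1. The 8 neutrophil markers summed to 10.2-16.2 CPM in Ctrl and 62.6, 65.1 and 20.7 CPM in Sox2 cKO libraries 1, 3 and 5. Of these markers 6 passed the filter, and 5 were called higher and 0 lower by edgeR, against 12.2% of all genes called higher. The part of neutrophils in the level of Jak3 was not tested. Tyk2 had a log2 fold change of 0.14 (adjusted p = 0.360, edgeR).

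Of the other STAT genes 4 of 5 passed the filter and 0 were called. Stat2 had a log2 fold change of 0.05 (adjusted p = 0.757, edgeR). Among 15 inhibitors 2 were lower and 1 was higher. Socs5, of the SOCS family, and Ptpn1, a tyrosine phosphatase of Janus kinases, had log2 fold changes of -0.32 (adjusted p = 0.0418) and -0.35 (adjusted p = 0.0265, edgeR). Pias3, which binds STAT3, had 0.45 (adjusted p = 0.0297, edgeR). With the length correction 0 of the 15 were called, against 13.1% of all genes. The adjusted p-values of edgeR were then 0.0881 for Socs5, 0.0621 for Ptpn1 and 0.0528 for Pias3.

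Genes known as targets of STAT3 moved in both directions. Of 26 genes 25 passed the filter, 4 were lower and 6 higher, against 24.6% of all genes called, and the median log2 fold change was 0.29. With the length correction 4 were lower and 5 higher, against 13.1% of all genes called in that fit, and the median was 0.10. The median length in this list was 2390 bases, against 3060 for all genes tested. The largest fall was that of A2m, which encodes the protease inhibitor alpha-2-macroglobulin and had 43.7, 53.3 and 102 CPM in the Ctrl libraries against 8.87, 7.06 and 8.84 CPM in the Sox2 cKO libraries (log2 fold change -3.004 ± 0.28 SE, adjusted p = 0.00209, edgeR). Gfap, the intermediate filament gene of astrocytes whose promoter also drives Cre in these mice, fell by 1.11 on the log2 scale (adjusted p = 0.0102, edgeR). In both genes Ctrl library 6 was the highest and Ctrl library 2 the lowest of the Ctrl libraries, as in Il6st. The same held for Lifr, Stat5b, Il6ra and the sums of astrocyte and oligodendrocyte precursor markers, but not for the other members. Of all genes tested, 22.0% had their highest CPM of all libraries in Ctrl library 6. The share of all genes with this same order of the Ctrl libraries was not computed. Hif1a, of the response to low oxygen, and Ccnd1, of the cell cycle, fell by 0.40 (adjusted p = 0.0127) and 0.34 (adjusted p = 0.0261, edgeR), and are named after their values were seen.

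The transcription factor genes Cebpb and Cebpd were both higher in Sox2 cKO, with library 1 the lowest of these libraries for Cebpb and the highest for Cebpd. Cebpb had 2.38, 2.62 and 2.12 CPM in the Ctrl libraries against 4.26, 6.04 and 5.74 CPM in the Sox2 cKO libraries (log2 fold change 1.17 ± 0.19 SE, adjusted p = 0.0125, edgeR), and Cebpd had 3.23, 3.70 and 3.28 CPM against 7.69, 6.04 and 5.18 CPM (log2 fold change 0.88 ± 0.18 SE, adjusted p = 0.0142, edgeR). The groups of both genes were apart. With the length correction Cebpb passed the test (adjusted p = 0.0255, edgeR) and Cebpd did not (adjusted p = 0.0619). Ier3, an early response gene, Vegfa, the angiogenic growth factor, and Serpina3n, a protease inhibitor known from reactive astrocytes, rose by log2 fold changes of 1.23 (adjusted p = 0.0150), 0.57 (adjusted p = 0.0240) and 0.52 (adjusted p = 0.0157, edgeR).

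Lcn2, which encodes lipocalin-2 and is known from reactive astrocytes and from neutrophil granules, had 1.75, 0.748 and 1.01 CPM in the Ctrl libraries against 17.6, 10.5 and 1.51 CPM in the Sox2 cKO libraries. The groups overlapped, because library 5 was below Ctrl library 2, although the gene was called (log2 fold change 3.07 ± 0.72 SE, adjusted p = 0.0176, edgeR). The same libraries 1 and 3 had the high sums of neutrophil markers given above for Jak3, and the part of neutrophils in the level of Lcn2 was not tested. The list held genes of other inputs as well as STAT3, and Gfap and other genes in it had been seen to change in these data when it was made, so their directions are not independent evidence.

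**Figure D5:**
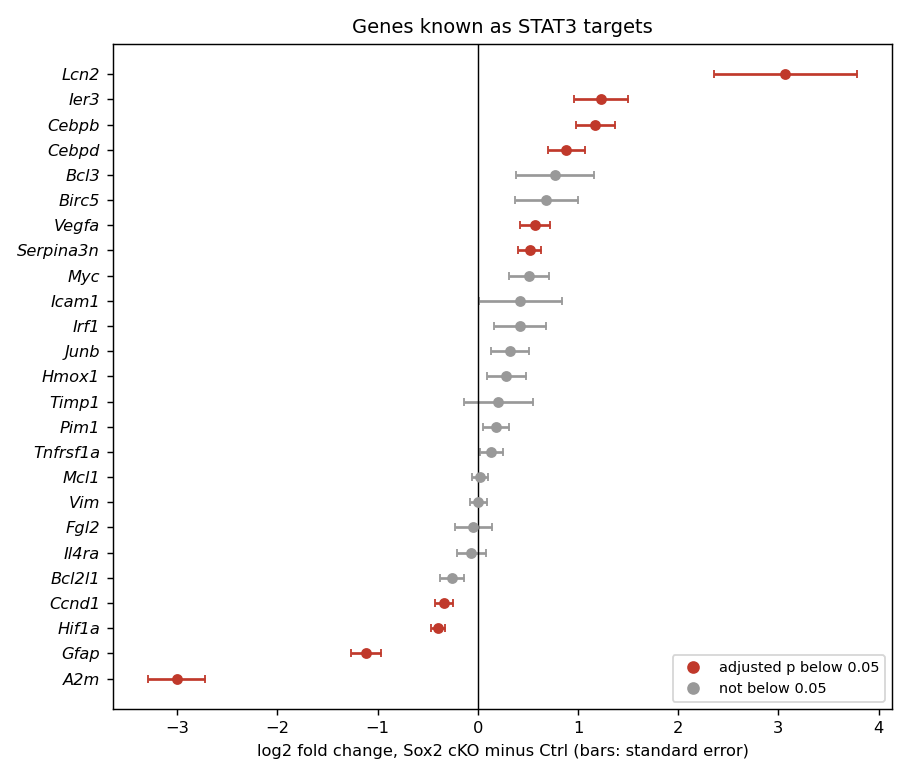
Log2 fold change (Sox2 cKO minus Ctrl) of the 25 tested genes known as STAT3 targets, with standard errors. Red points passed the test of edgeR. A2m and Gfap are the lowest and Lcn2 and Ier3 the highest of the genes.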

How the data were processed

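Bulk RNA-seq of poly(A) RNA covered whole spinal cords of 3 Sox2 cKO and 3 Ctrl mice. The authors aligned the reads to mm10 with STAR 2.5 and counted them per gene with HTSeq 0.6.1, as the submitters' processing notes list, and deposited the counts without normalization. The authors also deposited FPKM values, which divide the counts by gene length and library total. The sources do not say if reads were counted by strand. The numbered columns were assigned by the numbers that the study gives to its mice of each group, and 1999 of 1999 genes in a table of the study had the group means that this mapping gives, with 0 after exchanging the groups. There were 0 columns of other samples. Over the 15 pairs of libraries the chi-square per degree of freedom was at least 6.74, so no pair held the same counts. By this measure Ctrl library 2 was nearer to Sox2 cKO libraries 5 and 3 (10.8 and 14.7) than to Ctrl libraries 4 and 6 (25.0 and 29.2). Its value with Sox2 cKO library 1 was 28.0. The cause was not tested. The series design names 3 mice of each group, so each library was taken as 1 animal.

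Names and positions came from GENCODE M21 (34490 of 35275 identifiers matched) and promoters from RefSeq (GRCm38.p6). The test was that of edgeR 4.0.16 in R 4.3.3 (filterByExpr, TMM, quasi-likelihood test, Benjamini-Hochberg at 0.05, no covariates). Standard errors were the fold change divided by the root of F. The alternatives were DESeq2 1.42.0, its size factors in edgeR, upper quartile normalization, no filter, at least 10 counts in every library, limma 3.58.1 on log2 FPKM with pseudocounts of 1 and 0.1 at a mean FPKM of at least 0.5, 6 fits without a library, and a length correction by lowess (span 0.3) in each library. Ratios of FPKM were added after the data were seen. On simulated data for this comparison with 200 genes changed by a log2 fold change of 1, edgeR recovered 99.0% of the changed genes over 16128 genes, and 4.35% of calls were false. With a length trend added, 81.8% of calls were false before the correction and 3.90% after it, over 16256 genes. The simulated trend was the same in every Sox2 cKO library and absent in Ctrl, with a common dispersion for all genes. The changed genes were drawn from genes above a minimum level. These shares therefore do not carry over to the smaller changes of most members or to libraries that vary within a group. The members and lists were chosen with earlier results of these data known. The genes named are the members, Sox2, and of each other list the called genes, up to the 8 of largest fold change, or the 2 of highest CPM where fewer than 2 were called. One result under this rule is not reported here. A single marker gene is named where it is at 0 in every library. With 3 libraries in each group an exact permutation test cannot give p below 0.1.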

Additional observations from a re-analysis of the deposited data

How the results depend on the processing

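Il6st kept its direction in all 14 alternative fits and Stat3 and Cntfr kept theirs, while their calls were lost in the fits named beside them. The genes called were 3970 (2008 lower, 1962 higher) and 2109 with the length correction, and between 8 (without Sox2 cKO library 1) and 6119 (without Ctrl library 2) when a library was left out, with 26 without Ctrl library 4. With limma on FPKM the split was 915 lower and 2670 higher at a pseudocount of 1 and 896 and 2614 at 0.1, where the median of all genes was 0.11. Members called were 3, 1 with upper quartile normalization and 1 with limma at each pseudocount, and 0 to 5 without a library. The counts were 0 without Ctrl library 4, where 1 member had an unadjusted p below 0.05, and without Sox2 cKO library 1, where 3 had. Other pathway genes called were 15, with 1 without Sox2 cKO library 1, 2 without Ctrl library 4 and up to 21. Lifr reversed to 0.16 with the length correction, and Jak2, at 0.01, ranged from -0.046 to 0.060 without a library. The causes were not tested. No paired analysis was possible because no label pairs a Sox2 cKO library with a Ctrl library. The study's text gives mice of both sexes in each group. The sex of each library is not labelled, and the fits held no covariate for it. Socs3 and the ligands had few counts, so small differences were not detectable at this depth.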
